A study of Mus musculus with 12 samples.

Results

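FoxO-deficient myeloid progenitors were compared with FoxO-deficient LSK cells, which gives the change in expression from the stem cell fraction of mouse bone marrow to its myeloid progenitors when FoxO1, FoxO3 and FoxO4 were targeted. The members were 6 of the 12 arrays of the study, chosen by their titles: arrays 4, 5 and 6 held FoxO-deficient LSK cells and arrays 10, 11 and 12 FoxO-deficient myeloid progenitors. The LSK fraction is the lineage-negative marrow cells that carry both Sca-1 and Kit. Both groups came from pooled mice with floxed Foxo1, Foxo3 and Foxo4 alleles and the Mx-Cre transgene, in which the interferon-responsive Mx promoter drives the recombinase. The other 6 arrays held the same cell types from floxed mice without Mx-Cre, called wild-type here, and they serve below only to ask whether the step differed with genotype. The agent that induced Cre, the ages of the mice, the sort markers of the myeloid progenitors and the deleted parts of the genes are not given in the sources used here. RNA was amplified and labelled in triplicate, per the labels, and no label tells whether each of the 3 arrays in a group had its own pool of mice. The p-values here therefore cover the spread of these arrays alone, and that spread may be technical.

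Hematopoietic stem cells sit at the top of the blood lineages and divide rarely. Their progeny pass through multipotent stages in which lymphoid and myeloid genes are both active, and then through common myeloid progenitors to granulocyte-monocyte or megakaryocyte-erythroid progenitors, which divide often. FoxO transcription factors are kept out of the nucleus by insulin and growth factor signalling. When nuclear, they activate genes of cell cycle arrest, apoptosis, autophagy and the defence against reactive oxygen species (ROS), and the study's design text names ROS metabolism as its subject.

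Levels are intensities with an offset of 0.6 added, quantile normalized over the 6 arrays and printed in the order of arrays 4, 5 and 6 for LSK cells and 10, 11 and 12 for myeloid progenitors. Group means are geometric. Changes are differences of mean log2(intensity + 0.6), myeloid progenitors minus LSK cells, ± the standard error of a limma fit with 3 arrays per group. A gene is said to have risen or fallen only at an adjusted p under 0.05 (Benjamini-Hochberg over 11967 genes), and "at least" marks a fold against a group with no array above the background limit. The log2 change of a gene with readings under the limit is the fitted value, set in part by readings with no order, and is no bound: with an offset of 16 that of Nr4a1 was -5.76 in place of -9.23. The setting "without array" below leaves 1 of the 6 arrays out. Each fit chose the probe set of a gene anew, so a value under another setting can come from another probe set. The mean deposited intensity per array was 145 to 166. Log2 values of arrays correlated across probe sets at r = 0.923 to 0.934 within a group and 0.889 to 0.893 between groups, over genes, which are not independent. The Gapdh 3′ over 5′ ratio, a measure of RNA integrity, was 2.34, 2.28 and 2.15 on the LSK arrays and 1.93, 2.03 and 1.77 on the myeloid progenitor arrays, and that of Actb was 2.77 to 3.24 and 3.02 to 3.26. The Gapdh ratios of the groups do not overlap, and their part in the results was not tested.

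The cell type markers were checked against the labels. Kit, the stem cell factor receptor by which such cells are sorted, read 463, 498 and 506 in LSK cells against 415, 457 and 455 in myeloid progenitors and did not pass the test (log2 change -0.15 ± 0.09, limma adjusted p = 0.237). Sca-1 is encoded by Ly6a, a gene that no probe set was paired with, so its level was not analysed here. The summed intensity of the stem cell and multipotent progenitor list was 28248 to 28973 on the LSK arrays and 12813 to 13146 on the myeloid progenitor arrays, and that of the granulocyte-monocyte progenitor list 19257 to 19582 and 39361 to 40544, in the same order. Markers of mature cells were present in part. Of the erythroid list, the globin gene Hba-a1 and the erythroid heme synthase Alas2 exceeded the background limit on no array. Of the mature B and plasma cell list, 24 genes were on the array and summed to 3971 to 4046 in LSK cells and 962 to 1043 in myeloid progenitors, with Pax5, Blk and Fcmr above the limit on no array. The T and NK cell list, 23 genes, summed to 1325 to 1584 and 2533 to 2863, and most of the second sum was Nkg7, a granule gene also found in myeloid progenitors, at means of 1022 and 2476. Cd3d, Cd8b1 and Ncr1 were above the limit on no array, and Cd3e on 1 LSK array and no myeloid progenitor array. The stromal and endothelial list, 25 genes, summed to 626 to 682 and 363 to 430.2, with Lepr, Pdgfra and Ibsp above the limit on no array. In sorted bulk cells, fewer cells of a type and less RNA per cell cannot be told apart. The genes named as above the limit on no array are all of that kind in these lists. On all 3 LSK arrays the limit was exceeded by 25 of 39 erythroid, 14 of 24 B and plasma cell, 11 of 23 T and NK cell and 9 of 25 stromal and endothelial genes, and on all 3 myeloid progenitor arrays by 33, 11, 6 and 7 of them. Their part in the results was not tested.

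Of the 11967 genes, 5118 passed the test, or 42.8%. In myeloid progenitors 2980 genes (24.9%) were higher and 2138 (17.9%) were lower, with a median change over all genes of 0.12. Groups did not overlap for 6935 genes, or 58%. The largest changes were falls: 5.04% of the genes were lower by over 4-fold and 2.26% higher by over 4-fold. When all 12 arrays were fitted together, 2695 of 13732 genes passed. That fit holds wild-type LSK array 2, whose Gapdh ratio was 344, and without it 5160 of 13445 genes passed. Array 2 belongs to neither group of this step. It enters through the joint normalization, the filter, the choice of probe sets and the spread estimated over all groups, and their parts were not tested. Counts of a list under the fit of 12 arrays are given beside it where they moved by over 1.5 times.

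**Figure D1:**
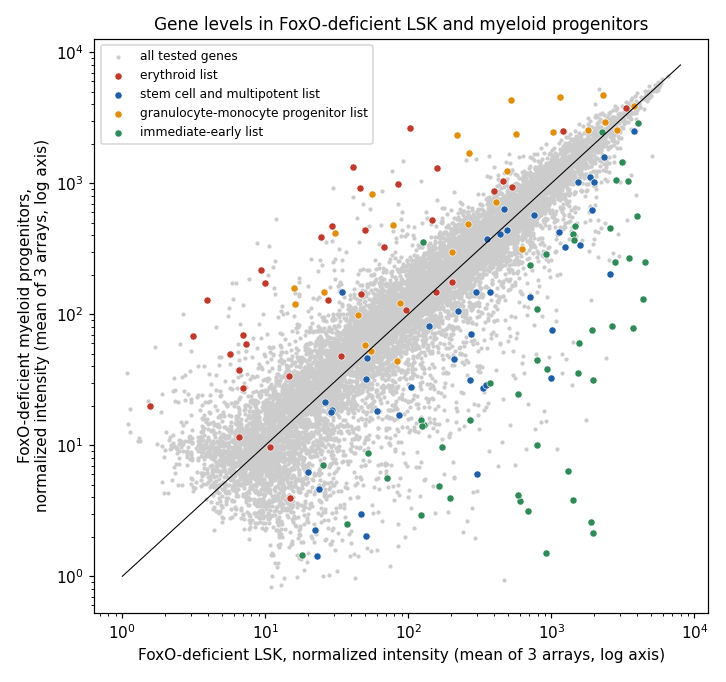
Mean normalized intensity of each tested gene in FoxO-deficient LSK cells (x axis) and FoxO-deficient myeloid progenitors (y axis), both on log axes, with 4 lists coloured and the line of equal levels drawn. Erythroid genes lie mostly above the line, stem cell genes below it and immediate-early genes farthest below it, as Nr4a3 does with means of 1942 and 2.15, the second of them under the background limit.

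Among the 15 largest rises by fitted log2 change, 4 belonged to the erythroid list. The largest was Nxpe2, at 9.95, 12.98 and 13.05 in LSK cells against 505, 560.0 and 537 in myeloid progenitors, a rise of 44.8-fold (log2 change 5.49 ± 0.14, limma adjusted p = 3.39e-05). The next was Tmem156, at 17.8, 7.32 and 5.18 in LSK cells against 339, 370.4 and 349.6 in myeloid progenitors, which rose 40.2-fold, with 2 LSK arrays above the limit. Their LSK arrays lay near background and every myeloid progenitor array far above it. Pklr, the pyruvate kinase of red cells and liver, read 51.7, 22.03 and 23.3 in LSK cells against 977, 892 and 898 in myeloid progenitors and rose 30.9-fold. Aldh1a7, an aldehyde dehydrogenase, read 8.38, 7.51 and 7.05 in LSK cells against 194, 179 and 186 in myeloid progenitors and rose 24.4-fold, also with 2 LSK arrays above the limit. In both genes every myeloid progenitor array lay above every LSK array. Nrg1, a ligand of ErbB receptors, was above the limit on no LSK array and read 33.7, 38.5 and 34.2 in myeloid progenitors, at least 4.91-fold higher. Slc45a3 was likewise above the limit on no LSK array and read 57.9, 58.5 and 51.9, at least 7.77-fold higher. Slc38a5, Rhd, Paqr9 and Cldn15 rose from 1 LSK array above the limit, and Dmkn and Atp1b2 from 2, and their LSK means, other than that of Paqr9, were at 2.52 to 6.19. No fold is given for these 6, whose myeloid progenitor means were 59.5 to 334.

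Among the 15 largest falls by fitted log2 change, 8 were immediate-early genes and 2 were immunoglobulin kappa variable segments. Igk-V21 read 465, 496 and 439 in LSK cells against 1.00, 0.900 and 0.900 in myeloid progenitors, a fall of at least 47.9-fold (log2 change -8.97 ± 0.10, limma adjusted p = 6.16e-06). Igkv9-120 read 294, 278 and 312 in LSK cells against 5.18, 1.40 and 1.03 in myeloid progenitors, at least 30.2-fold lower. All 3 myeloid progenitor arrays of both segments were below the background limit. Rgs1, which shortens signals from G protein-coupled receptors, read 1748, 1726 and 1769 in LSK cells against 19.8, 7.63 and 25.2 in myeloid progenitors and fell 112-fold, with 2 myeloid progenitor arrays above the limit (log2 change -6.81 ± 0.46, limma adjusted p = 0.000406). Cd83, a surface protein of activated lymphoid and dendritic cells, read 1161, 1066 and 1053 in LSK cells against 5.97, 13.6 and 9.95 in myeloid progenitors (log2 change -6.87 ± 0.31, limma adjusted p = 0.000153). Lif, a cytokine of the interleukin 6 family, read 246, 260.3 and 223 in LSK cells against 8.09, 0.716 and 1.75 in myeloid progenitors and fell at least 24.9-fold. The groups do not overlap in either gene.

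**Figure D2:**
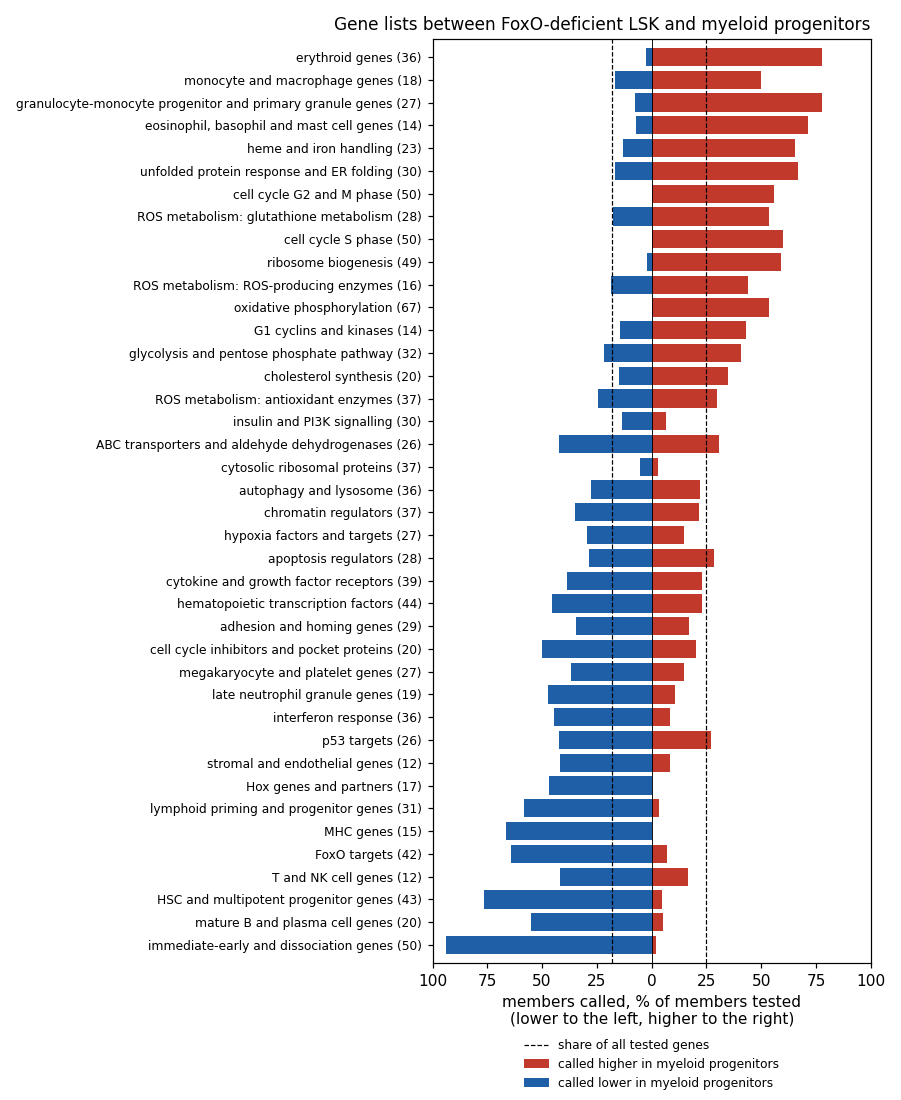
Share of the tested members of each list that were called higher (red, to the right) or lower (blue, to the left) in FoxO-deficient myeloid progenitors, with the number tested in brackets and dashed lines at the shares over all tested genes, 24.9% and 17.9%. Lists are ordered by median change, from erythroid genes (2.24) at the top to immediate-early genes (-4.01) at the bottom.

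Stem cell genes fell together. Of 49 genes in the stem cell and multipotent progenitor list, 45 were on the array and 43 passed the filter on dim probe sets. Of these, 33 fell, 2 rose and 8 did not pass the test, with a median change of -1.63 against 0.12 over all genes. A member could pass the filter through one group alone, so the counts of tested members favour those that differ. Procr, the endothelial protein C receptor by which stem cells are often enriched, read 337, 265 and 309 in LSK cells against 10.8, 1.84 and 11.1 in myeloid progenitors with 2 myeloid progenitor arrays just above the limit and 1 below it (log2 change -5.64 ± 0.74, limma adjusted p = 0.00308). Mecom, a zinc finger factor needed for stem cell maintenance, read 2474, 2530.4 and 2653 in LSK cells against 226, 176 and 207 in myeloid progenitors, 12.6-fold lower. Hlf, a bZIP factor of stem cells, read 955, 1005 and 1063 in LSK cells against 81.4, 65.8 and 80.9 in myeloid progenitors, 13.3-fold lower. In each of these genes the lowest LSK array stood far above the highest myeloid progenitor array. Ndn, a growth suppressor of quiescent cells, read 1069.7, 975 and 921 in LSK cells against 29.1, 18.9 and 62.4 in myeloid progenitors and fell 30.3-fold, its myeloid progenitor arrays differing more among themselves, relative to their mean, than its LSK arrays. Tek, the angiopoietin receptor, read 208, 185 and 236 in LSK cells against 46.4, 44.5 and 45.7 in myeloid progenitors and fell 4.58-fold. Adhesion and guidance receptors followed: Esam was at least 4.81-fold lower, Robo4 at least 2.35-fold lower and the stem cell marker Fgd5 at least 5.18-fold lower, none of them above the limit on any myeloid progenitor array. Hmga2, a chromatin protein of fetal and self-renewing cells, read 780.4, 749 and 620.4 in LSK cells against 131, 145 and 129 in myeloid progenitors, 5.29-fold lower.

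Some stem cell genes changed little or rose. Gata2, a transcription factor of stem cells that mast cells also use, fell 1.66-fold, from means of 1857 to 1119.6. Slamf1, the receptor known as CD150, read 49.5, 50.1 and 54.2 in LSK cells against 39.2, 37.6 and 66.2 in myeloid progenitors with overlapping groups (log2 change -0.15 ± 0.24, limma adjusted p = 0.635). Mycn, a proto-oncogene, fell 2.50-fold from 371 to 148, and the efflux pump Abcg2 fell 1.33-fold. The 2 that rose were Cd48 (1.38-fold), a receptor that stem cells lack and progenitors gain, and Gfi1b (4.27-fold), a repressor used by erythroid and megakaryocytic cells. The repressor read 26.5, 47.6 and 32.8 in LSK cells against 144, 156 and 144 in myeloid progenitors. Abcg2 did not pass without array 4, 5, 6, 10 or 12, without the filter or with 75th percentile scaling. Nor did Abcg2, Gata2 or Cd48 with all 12 arrays.

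Hox genes, several of which are known to support stem cell self-renewal, tended to be lower. Of 17 Hox genes and partners tested, 8 fell, none rose and 9 did not pass (limma), with a median of -0.82. At an unadjusted p under 0.05 in that fit, 11 were lower and none higher, against 6210 of 11967 genes in either direction. Hoxa10 read 503, 577 and 536 in LSK cells against 33.1, 35.1 and 34.6 in myeloid progenitors and fell 15.7-fold (log2 change -3.97 ± 0.09, limma adjusted p = 2.87e-05). Hoxa3 read 125, 147 and 170.3 in LSK cells against 42.2, 27.4 and 29.5 in myeloid progenitors and Hoxa5 90.7, 77.4 and 92.8 in LSK cells against 12.5, 21.8 and 17.8 in myeloid progenitors, 4.50-fold and 5.12-fold lower. The groups do not overlap in any of the 3. Hoxa4 read 13.48, 4.56 and 16.5 in LSK cells against 5.58, 16.5 and 6.55 in myeloid progenitors, near background with overlapping groups.

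Genes of the lymphoid branch were also lower in myeloid progenitors. Of the lymphoid priming and progenitor list, 31 of 38 genes were tested; 18 fell, 1 rose and 12 did not pass, with a median of -0.99. Flt3, the receptor of multipotent and lymphoid-primed progenitors, read 294, 291 and 233 in LSK cells against 28.4, 37.4 and 29.7 in myeloid progenitors and fell 8.58-fold (log2 change -3.10 ± 0.16, limma adjusted p = 0.000198). Dntt, the terminal transferase that adds bases at rearranging receptor genes, read 1828, 1876 and 1896 in LSK cells against 589, 506 and 487 in myeloid progenitors and fell 3.55-fold. Notch1, the receptor that starts the T lineage, read 491, 581 and 481 in LSK cells against 262, 252 and 263 in myeloid progenitors and fell 1.99-fold. Every LSK array exceeded every myeloid progenitor array in all 3 genes. Gimap6, a GTPase of lymphocytes, fell at least 31.03-fold from 405, 242 and 282 in LSK cells. Lax1, an adaptor of lymphocyte receptors, read 215, 188 and 180.3 in LSK cells against 9.47, 13.1 and 12.4 in myeloid progenitors and fell 16.8-fold. Wfdc17 read 550.0, 469 and 518 in LSK cells against 6.15, 15.2 and 31.5 in myeloid progenitors and fell 35.7-fold, with 2 myeloid progenitor arrays above the limit. The 1 gene that rose was Cnn3, an actin-binding calponin, by 2.64-fold. Notch1 did not pass with all 12 arrays.

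Antigen presentation and immunoglobulin genes fell as well. Of 15 MHC genes 10 fell, 5 did not pass and none rose in the limma fit, with a median of -1.10. With an unadjusted p under 0.05 in that fit, 11 were lower and none higher, against 6210 of 11967 genes in either direction. Cd74, the invariant chain of class II molecules, read 329, 423 and 319.5 in LSK cells against 69.7, 57.1 and 43.2 in myeloid progenitors and fell 6.37-fold (log2 change -2.67 ± 0.22, limma adjusted p = 0.000695). H2-Eb1, a class II beta chain, read 130.2, 137 and 153 in LSK cells against 14.9, 10.997 and 26.1 in myeloid progenitors and fell 8.62-fold. H2-Ob, part of the regulator of peptide loading, read 374, 344 and 416 in LSK cells against 85.9, 61.01 and 67.9 in myeloid progenitors and fell 5.32-fold. The 3 genes separated the groups without overlap. Of the mature B and plasma cell list, 20 genes were tested; 11 fell, 1 rose and 8 did not pass, with a median of -1.79. Jchain, which joins antibody units, read 1305, 1193 and 1330.0 in LSK cells against 48.4, 43.6 and 44.02 in myeloid progenitors, a fall of 28.1-fold (log2 change -4.81 ± 0.09, limma adjusted p = 2.74e-05). Ighm, the mu heavy chain, read 492, 548 and 459 in LSK cells against 72.6, 68.5 and 50.02 in myeloid progenitors, 7.93-fold lower, and 7 other kept probe sets of the gene had the same sign. Sdc1, a proteoglycan of plasma cells, read 400.4, 475 and 498 in LSK cells against 51.3, 54.1 and 48.04 in myeloid progenitors, 8.92-fold lower. By contrast, Cd79b, a chain of the B cell receptor, read 109, 93.2 and 91.6 in LSK cells against 122, 122 and 157 in myeloid progenitors and did not pass (log2 change 0.44 ± 0.14, limma adjusted p = 0.0568). Xbp1, a factor of secretory cells, rose 1.80-fold. The summed level of the list in each group is given above, and its part in these falls was not tested. Of the T and NK cell list 12 genes were tested; 5 fell and 2 rose, and the falls numbered 2 to 6 under other settings, 2 without any one of the LSK arrays. Cd28, a costimulatory receptor, read 114, 127 and 121 in LSK cells against 1.12, 7.50 and 8.05 in myeloid progenitors, at least 12.4-fold lower.

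Granulocyte and monocyte progenitor genes rose. Of 34 genes of the granulocyte-monocyte progenitor and primary granule list 27 were on the array and all 27 were tested: 21 rose, 2 fell and 4 did not pass, with a median of 1.15. With all 12 arrays 13 rose. Elane, neutrophil elastase, read 199, 276 and 191 in LSK cells against 2494, 2308 and 2237 in myeloid progenitors, a rise of 10.7-fold (log2 change 3.42 ± 0.17, limma adjusted p = 0.000179). Prtn3, proteinase 3, read 544, 612 and 533 in LSK cells against 2486, 2474 and 2162 in myeloid progenitors and rose 4.22-fold. Ctsg, cathepsin G, read 1206, 1257 and 999.5 in LSK cells against 4702, 4501 and 4526 in myeloid progenitors and rose 3.98-fold. These proteases of the primary granule were already well above background in LSK cells, and the arrays of the groups stayed apart. Mpo, myeloperoxidase, read 2376, 2208 and 2254 in LSK cells against 4737, 4618 and 4813 in myeloid progenitors and rose 2.07-fold. Igsf6, an immunoglobulin-like receptor of myeloid cells, read 60.3, 62.8 and 46.5 in LSK cells against 875, 753 and 860.4 in myeloid progenitors, the largest rise of this list at 14.8-fold. Rab44 read 32.2, 30.6 and 28.8 in LSK cells against 469, 437 and 359.6 in myeloid progenitors, 13.7-fold higher. Among the regulators, Cebpa, the factor that commits cells to the granulocyte-monocyte fate, read 523, 487 and 454 in LSK cells against 1284, 1289 and 1170.3 in myeloid progenitors and rose 2.56-fold (log2 change 1.36 ± 0.10, limma adjusted p = 0.000487). Gfi1, a repressor that favours granulocytes, read 79.2, 71.1 and 84.5 in LSK cells against 506, 470.3 and 472 in myeloid progenitors and rose 6.18-fold. Irf8, which favours monocytes, read 34.2, 22.3 and 22.6 in LSK cells against 153, 157 and 133 in myeloid progenitors and rose 5.70-fold. None of these 3 factors had overlapping groups. The 2 that fell were Lyz2, the lysozyme of mature myeloid cells, from 622 to 316, and Csf2ra, a chain of the GM-CSF receptor, from 82.8 to 44.1. The other kept probe set of Csf2ra had the opposite sign. The call of Csf2ra was lost without the filter and without array 4, 5, 6, 11 or 12, and with all 12 arrays its change was 0.52. That fit chose the probe set anew, so this value may come from the other one.

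Later granule genes went the other way. Of 19 late neutrophil granule genes tested, 9 fell, 2 rose and 8 did not pass, with a median of -0.53; with all 12 arrays 5 fell. Ngp, a granule protein, read 851, 788 and 863 in LSK cells against 349, 331 and 348 in myeloid progenitors and fell 2.43-fold (log2 change -1.28 ± 0.08, limma adjusted p = 0.000385). Ltf, lactoferrin, fell 2.70-fold, and Camp, the cathelicidin, fell 2.56-fold. Lcn2, lipocalin 2, fell 1.84-fold. S100a9, part of calprotectin, read 3565, 3636 and 3561 in LSK cells against 2509.5, 2552 and 2668 in myeloid progenitors and fell 1.39-fold, and its partner S100a8 read 3542, 3386 and 3633 in LSK cells against 3479, 3195 and 3317 in myeloid progenitors with overlapping groups. Levels of this list summed to 10530 to 10956 in LSK cells and 8370 to 8754 in myeloid progenitors. Fcnb, ficolin B, rose 2.77-fold from 75.8 to 209.9, and Cxcr2, a chemokine receptor of neutrophils, rose at least 2.09-fold from LSK arrays below the limit. Cxcr2 did not pass without array 6, without the filter or with all 12 arrays.

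Among monocyte and macrophage genes, 9 of 18 rose, 3 fell and 6 did not pass, with a median of 1.40. Ccr2, the chemokine receptor by which monocytes leave marrow, read 8.93, 11.8 and 13.8 in LSK cells against 246, 220.3 and 221 in myeloid progenitors, a rise of 20.2-fold (log2 change 4.34 ± 0.18, limma adjusted p = 0.000123). F13a1, a transglutaminase chain of monocytes and platelets, read 112, 84.8 and 79.6 in LSK cells against 1493, 1586 and 1358 in myeloid progenitors, 16.2-fold higher. Csf1r, the M-CSF receptor, read 16.8, 8.97 and 25.9 in LSK cells against 135, 197 and 146 in myeloid progenitors, 9.99-fold higher. The LSK arrays were near background for the chemokine receptor and for Csf1r, and no arrays crossed between groups. Ly86 rose 10.8-fold and Ms4a6c 10.2-fold. The 3 that fell were Klf4, Cd14 and Ctss: Klf4, a factor of monocyte differentiation that is also an immediate-early gene, read 737, 885 and 761 in LSK cells against 42.5, 45.2 and 45.6 in myeloid progenitors and fell 17.8-fold. Cd14, the lipopolysaccharide co-receptor, read 82.6, 88.9 and 78.1 in LSK cells against 12.1, 14.4 and 13.8 in myeloid progenitors and fell 6.19-fold. Adgre1, the macrophage antigen F4/80, stayed near background at 9.13 and 11.6. Csf1r did not pass with all 12 arrays.

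Genes of eosinophils, basophils and mast cells rose in 10 of 14 cases, with 1 fall, that of Gata2, and a median of 0.83; with all 12 arrays 4 rose. Hdc, which makes histamine, read 37.2, 26.99 and 35.4 in LSK cells against 294, 340.2 and 321 in myeloid progenitors, 9.65-fold higher (log2 change 3.27 ± 0.15, limma adjusted p = 0.000164). Ms4a2, which encodes part of the high-affinity IgE receptor, read 11.2, 12.9 and 15.7 in LSK cells against 126, 121 and 100.9 in myeloid progenitors, 8.78-fold higher. Siglecf read 33.9, 24.04 and 14.7 in LSK cells against 133, 134 and 125 in myeloid progenitors, 5.70-fold higher. Cpa3, carboxypeptidase A of mast cells, rose 4.66-fold from 47.8 to 223. The arrays of each of these genes fell into separate groups. The eosinophil granule genes changed less: Epx rose 1.85-fold and Prg2 read 63.9 and 84.9 without passing (log2 change 0.41 ± 0.15, limma adjusted p = 0.0744). Epx did not pass without array 6, 10, 11 or 12, without the filter, with 75th percentile scaling, or with 11 or 12 arrays fitted together. Siglecf did not pass with all 12 arrays.

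Of the lists, chosen with earlier results of these data known, the erythroid one had the highest median change. Of 47 genes, 39 were on the array and 36 were tested: 28 rose, 1 fell and 7 did not pass, with a median of 2.24, and 20 rose by over 4-fold. The transcription factors Gata1 and Klf1 were among them. Gata1, which specifies erythroid and megakaryocytic cells, read 45.8, 45.5 and 58.97 in LSK cells against 489.8, 432 and 406 in myeloid progenitors and rose 8.88-fold (log2 change 3.15 ± 0.15, limma adjusted p = 0.000158). Klf1, the erythroid Kruppel-like factor, read 11.1, 7.32 and 9.95 in LSK cells against 214, 215 and 223 in myeloid progenitors and rose 23.3-fold, with 2 LSK arrays above the limit (log2 change 4.54 ± 0.17, limma adjusted p = 0.000106). Their LSK arrays lay close together and far below the lowest myeloid progenitor array. Epor, the erythropoietin receptor, read 7.63, 4.88 and 7.40 in LSK cells against 39.8, 31.96 and 41.02 in myeloid progenitors (log2 change 2.52 ± 0.21, limma adjusted p = 0.000827). Car1, a carbonic anhydrase of red cells, read 100.9, 93.2 and 114 in LSK cells against 2555, 2670.3 and 2638 in myeloid progenitors, 25.6-fold higher, and Car2, a second carbonic anhydrase, read 3347, 3249 and 3333 in LSK cells against 3946, 3823 and 3565 in myeloid progenitors without passing (log2 change 0.19 ± 0.08, limma adjusted p = 0.119). Ermap, an erythroid membrane protein, read 50.02, 49.5 and 28.04 in LSK cells against 1381, 1266 and 1356 in myeloid progenitors, 32.4-fold higher. Rhd, the Rh antigen, read 3.55, 1.23 and 13.55 in LSK cells against 136, 106 and 146 in myeloid progenitors, with 1 LSK array above the limit. Tfrc, the transferrin receptor, read 1254, 1132 and 1221 in LSK cells against 2479, 2446 and 2559.5 in myeloid progenitors and rose 2.08-fold. The gene called lower was Slc4a1, the anion exchanger band 3 of later red cells, which read 16.7, 14.2 and 13.9 in LSK cells against 4.73, 1.71 and 7.63 in myeloid progenitors, below the limit on every myeloid progenitor array (log2 change -1.91 ± 0.55, limma adjusted p = 0.0393). This call was lost without array 4, 5, 6, 10 or 12, with an offset of 16, without the filter and with all 12 arrays. Without array 12 the log2 change was -0.30, but that fit chose another probe set of the gene. That probe set read 11.4, 11.5 and 12.8 in LSK cells against 17.9, 5.18 and 1.03 in myeloid progenitors over the 6 arrays. The values without array 4, 5 and 6 came from it too. Mt1 and Mt2, metallothioneins that bind zinc and copper in many cell types, named here after their values were seen, are among the risen members of this list, by 3.04 and 4.33 on the log2 scale. Ces2g, also on the list and likewise named after its values were seen, read 94.6, 85.6 and 74.3 in LSK cells against 1002, 973 and 988 in myeloid progenitors. The count and median of the list rest in part on these members.

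The promoters of 3 of these genes are printed because GATA factors bind the letters GATAA, or TTATC on the other strand, and Gata1 was among the risen genes. Each stretch holds the 250 bases before the RefSeq gene start on assembly GRCm38.p6, 5′ to 3′ on the strand of the gene, with the motif in capitals. Klf1 lies at chr8:84901732-84901981 on the plus strand, Epor at chr9:21963577-21963826 on the minus strand and Ermap at chr4:119189996-119190245 on the minus strand.
Klf1: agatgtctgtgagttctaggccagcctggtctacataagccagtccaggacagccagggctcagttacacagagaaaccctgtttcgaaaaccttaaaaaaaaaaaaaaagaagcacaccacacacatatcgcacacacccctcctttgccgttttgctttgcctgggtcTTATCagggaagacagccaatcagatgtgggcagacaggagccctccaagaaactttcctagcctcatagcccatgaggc
Epor: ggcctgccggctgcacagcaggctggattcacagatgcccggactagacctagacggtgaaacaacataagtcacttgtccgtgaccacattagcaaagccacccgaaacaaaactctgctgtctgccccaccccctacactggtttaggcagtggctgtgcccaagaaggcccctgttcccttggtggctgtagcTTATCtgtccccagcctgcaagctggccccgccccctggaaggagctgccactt
Ermap: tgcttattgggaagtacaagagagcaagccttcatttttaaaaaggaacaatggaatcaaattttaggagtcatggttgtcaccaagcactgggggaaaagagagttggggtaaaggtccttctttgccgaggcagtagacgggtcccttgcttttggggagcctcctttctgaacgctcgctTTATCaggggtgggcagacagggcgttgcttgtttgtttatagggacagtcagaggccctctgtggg
Each holds the motif 1 time. Of the 28 erythroid genes that rose, 24 had a promoter in the RefSeq table, and 14 of these (58.3%) held GATAA on either strand in this window, against 1745 of 9729 tested genes with a promoter (17.9%). The motif, the window and the genes shown were chosen after the values were seen, and a match is a run of letters, not a shown binding site.

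Heme synthesis and iron uptake genes accompanied them. Of 23 heme and iron genes tested, 15 rose, 3 fell and 5 did not pass, with a median of 0.70. Alas1, the first enzyme of heme synthesis in most tissues, read 33.6, 26.99 and 31.8 in LSK cells against 241, 265 and 287 in myeloid progenitors, 8.60-fold higher (log2 change 3.10 ± 0.13, limma adjusted p = 0.000123). Of the later enzymes, Cpox rose 3.62-fold, Uros 3.09-fold, Urod 1.76-fold and Alad 1.63-fold. Slc40a1, the iron exporter ferroportin, read 19.2, 14.4 and 32.6 in LSK cells against 278, 257 and 252 in myeloid progenitors and rose 12.6-fold. Slc11a2, the iron importer, rose 3.87-fold from 20.6 to 79.8, and Abcb10, a mitochondrial transporter, rose 2.56-fold from 469 to 1199.6. The 3 that fell were Abcg2, Ltf and Lcn2, and the last pair are neutrophil granule proteins that bind iron. Of 27 megakaryocyte and platelet genes tested, 10 fell (37%), 4 rose (14.8%) and 13 did not pass, against 17.9% lower and 24.9% higher over all genes. Their median was -0.52, and 6 fell with all 12 arrays. Gata1 and Gfi1b, among the 4 that rose, also belong to the erythroid list. Thbs1, thrombospondin 1, read 858, 747 and 962 in LSK cells against 18.7, 9.47 and 19.8 in myeloid progenitors and fell 56.1-fold, with 2 myeloid progenitor arrays above the limit (log2 change -5.81 ± 0.31, limma adjusted p = 0.000232). F2r, a thrombin receptor, read 2107, 2128 and 2148 in LSK cells against 413, 479.8 and 384 in myeloid progenitors and fell 5.02-fold. Selp, P-selectin, read 207, 179 and 189 in LSK cells against 65.8, 34.6 and 45.3 in myeloid progenitors and fell 4.08-fold. Pf4, platelet factor 4, read 279, 285 and 306 in LSK cells against 249, 232 and 195 in myeloid progenitors without passing (log2 change -0.37 ± 0.12, limma adjusted p = 0.0565).

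**Figure D3:**
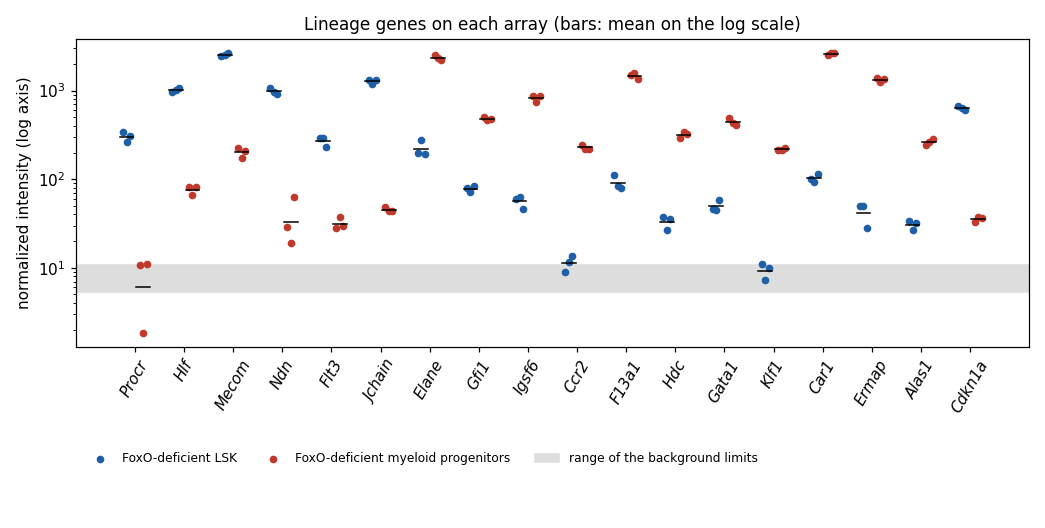
Normalized intensity (log axis) of 18 lineage and cell cycle genes on each of the 3 FoxO-deficient LSK arrays (blue) and 3 FoxO-deficient myeloid progenitor arrays (red), with bars at the mean of the log values and a grey band from the lowest to the highest background limit, 5.38 to 10.6. The groups of every gene shown are apart, and Klf1, Ccr2 and Procr lie in or near the band in one group.

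Genes of dividing cells were higher in myeloid progenitors. Of 50 S phase genes tested 30 rose and none fell in the limma fit, with a median of 0.47. With an unadjusted p under 0.05 in that fit, 35 were higher and none lower, against 6210 of 11967 genes in either direction. Under other settings 22 to 37 rose, and 13 with all 12 arrays. Of 50 genes of G2 and M phase 28 rose and none fell, with a median of 0.52. With an unadjusted p under 0.05 (limma), 36 were higher and 1 lower, against the same 6210 of 11967 genes. Under other settings 24 to 39 rose and at most 1 fell. Ccne1, a cyclin that opens S phase, read 34.8, 31.96 and 31.9 in LSK cells against 141, 148 and 165 in myeloid progenitors and rose 4.60-fold (log2 change 2.20 ± 0.10, limma adjusted p = 0.000156), and its relative Ccne2 read 36.9, 47.1 and 42.2 in LSK cells against 169, 125 and 140.1 in myeloid progenitors and rose 3.44-fold. Cdc6, which loads the replicative helicase, read 48.8, 69.2 and 89.3 in LSK cells against 189, 193 and 178 in myeloid progenitors and rose 2.78-fold. These genes kept the groups apart. The subunits of that helicase moved little: Mcm2 rose 1.38-fold and Mcm6 1.27-fold. Mcm4 read 1831, 1669 and 1850.4 in LSK cells against 1962, 1992 and 1863 in myeloid progenitors without passing (log2 change 0.12 ± 0.09, limma adjusted p = 0.305). In mitosis, Aurka, the spindle kinase, read 34.9, 39.9 and 38.4 in LSK cells against 105, 107 and 116 in myeloid progenitors and rose 2.90-fold. Its relative Aurkb read 124, 124 and 116 in LSK cells against 264, 265 and 278 in myeloid progenitors and rose 2.21-fold. Cdk1, the mitotic kinase, read 440.0, 416 and 413 in LSK cells against 828, 797 and 859 in myeloid progenitors and rose 1.96-fold (log2 change 0.97 ± 0.08, limma adjusted p = 0.000813). In G1, Ccnd1 fell 4.12-fold from 227 to 55.1, Ccnd2 read 1288 and 1123 without passing, and Cdk6 rose 1.58-fold from 1063 to 1679. Of 14 G1 genes 6 rose (42.9%) and 2 fell (14.3%), against 24.9% and 17.9% over all genes. The falls were those of Ccnd1 and Mycn, and Myc rose 2.82-fold. Mcm2 did not pass without array 5, 6, 10, 11 or 12, and Mcm6 without array 4, 6, 11 or 12, and neither did without the filter. Mcm2, Mcm6 and Aurkb did not pass with all 12 arrays.

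Cell cycle inhibitors fell more often than they rose. Of 20 inhibitors and pocket proteins tested 10 fell (50%), 4 rose (20%) and 6 did not pass, against 17.9% lower and 24.9% higher over all genes. Their median was -0.35, and 6 fell with all 12 arrays. Cdkn1a, the inhibitor p21, read 672, 644 and 608 in LSK cells against 32.8, 37.7 and 36.8 in myeloid progenitors and fell 17.95-fold (log2 change -4.17 ± 0.10, limma adjusted p = 2.87e-05). Its 3 LSK arrays lay within a narrow range far above the myeloid progenitor arrays. Cdkn1b, the inhibitor p27, read 753, 687 and 803 in LSK cells against 519, 531 and 549 in myeloid progenitors and fell 1.40-fold. Btg2, an antiproliferative gene, read 276, 279.6 and 256 in LSK cells against 15.2, 20.8 and 11.97 in myeloid progenitors and fell 17.3-fold. Tob1 of the same family fell 3.23-fold from 528 to 164. Ccng2, an atypical cyclin that marks arrested cells, read 598, 545 and 519.6 in LSK cells against 153, 176 and 205 in myeloid progenitors and fell 3.13-fold. The retinoblastoma gene Rb1 rose 1.26-fold and its relative Rbl1 1.39-fold, with 1 of the other 2 kept probe sets of Rbl1 of opposite sign. Rb1 did not pass without array 5, 6, 10, 11 or 12 or without the filter, and neither Rb1 nor Cdkn1b did with all 12 arrays.

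Genes of ROS metabolism, the subject of the study, were called in both directions. Of 37 antioxidant enzymes tested 11 rose, 9 fell and 17 did not pass, with a median of 0.09 against 0.12 over all genes. These are 29.7% higher and 24.3% lower, near the 24.9% and 17.9% over all genes. Without a filter on dim probe sets 7 rose, without any one of arrays 5, 6, 10 and 11 also 7, and with all 12 arrays 5. Several central detoxifying enzymes did not pass. The superoxide dismutase Sod1 had means of 5604 and 5952, and 2 of its 3 other kept probe sets had the opposite sign. Sod2, its mitochondrial relative, had means of 846 and 983, catalase (Cat) 868 and 814 and the glutathione peroxidase Gpx1 2924 and 3403. Their changes on the log2 scale ran from -0.09 for Cat to 0.22 for Gpx1, and the arrays overlapped for Sod2, Cat and Gpx1. Among the enzymes that rose, Prdx3, the mitochondrial peroxiredoxin, read 321, 286 and 311 in LSK cells against 543, 649 and 738 in myeloid progenitors and rose 2.09-fold (log2 change 1.06 ± 0.14, limma adjusted p = 0.00302). Txn2, the mitochondrial thioredoxin, read 83.0, 95.9 and 77.3 in LSK cells against 167, 158 and 169 in myeloid progenitors and rose 1.94-fold. Msrb1, which repairs oxidised methionine, read 65.1, 80.6 and 76.7 in LSK cells against 278, 273 and 239 in myeloid progenitors and rose 3.56-fold. Gpx3 rose 3.29-fold from 12.98 to 42.7. Srxn1, sulfiredoxin, which reactivates peroxiredoxins, read 421, 430.1 and 407 in LSK cells against 90.5, 96.8 and 86.0 in myeloid progenitors and fell 4.61-fold (log2 change -2.20 ± 0.09, limma adjusted p = 0.000114). Sesn3, a sestrin and known FoxO target, read 127, 126 and 142 in LSK cells against 63.8, 51.8 and 65.3 in myeloid progenitors and fell 2.19-fold. Selenop, selenoprotein P, fell 1.93-fold from 2398 to 1241. In each gene named with array values here the groups were separate. Txn2 did not pass with all 12 arrays, and Sesn3 with the mean of all kept probe sets.

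Glutathione genes rose more often than they fell. Of 28 tested 15 rose (53.6%), 5 fell (17.9%) and 8 did not pass, with a median of 0.48. Over all genes 24.9% rose and 17.9% fell, so the share of falls in the list was that of all genes. The rises numbered 6 without the filter, 7 without array 10 and 5 with all 12 arrays. Gsr, glutathione reductase, read 2162, 1962 and 1998 in LSK cells against 3328, 3317 and 3319.8 in myeloid progenitors and rose 1.63-fold (log2 change 0.70 ± 0.08, limma adjusted p = 0.00212). The glutathione transferase Gstm1 read 184, 177 and 153 in LSK cells against 510.0, 567 and 482 in myeloid progenitors and rose 3.04-fold. Gstm5 rose 2.05-fold. Of the subunits of the enzyme that limits glutathione synthesis, Gclc was 1.52-fold and Gclm 1.30-fold higher. Gclc did not pass without array 6, 10 or 12, nor Gclm without array 4, 5, 11 or 12, and neither passed without the filter or with all 12 arrays. Pgd and Idh1, which supply NADPH, rose 1.97-fold and 2.13-fold. Against them, Gstt1 read 40.6, 64.7 and 44.6 in LSK cells against 9.67, 10.7 and 10.8 in myeloid progenitors and fell 4.70-fold. Gstk1 fell 2.42-fold, and Ggt5, of the gamma-glutamyltransferase family, fell at least 3.98-fold. Slc3a2, the heavy chain of the cystine transporter, read 557, 509.6 and 538 in LSK cells against 235, 216 and 204 in myeloid progenitors and fell 2.45-fold. Of 16 ROS-producing enzymes 7 rose (43.8%) and 3 fell (18.8%), against 24.9% and 17.9% over all genes. Subunits of the phagocyte NADPH oxidase rose in part: Ncf4 read 152, 141 and 124 in LSK cells against 279.5, 265 and 285 in myeloid progenitors and rose 1.99-fold. Ncf1 rose 1.94-fold. Its catalytic subunit Cybb read 77.9, 40.6 and 37.2 in LSK cells against 77.8, 76.7 and 105 in myeloid progenitors with overlapping groups (log2 change 0.80 ± 0.32, limma adjusted p = 0.0964). Smox, which oxidises spermine, read 229, 224 and 285 in LSK cells against 16.2, 19.8 and 8.73 in myeloid progenitors and fell 17.4-fold, with 2 myeloid progenitor arrays above the limit. Gsr and Ncf1 did not pass with all 12 arrays, nor did Ncf1 with 11.

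Energy metabolism and ribosome assembly genes rose by small amounts. Of 67 oxidative phosphorylation genes 36 rose and none fell in the limma fit, with a median of 0.35. With an unadjusted p under 0.05 in that fit, 45 were higher and none lower, against 6210 of 11967 genes in either direction. Under other settings 23 to 52 rose and at most 1 fell, and 18 rose with all 12 arrays. Cycs, cytochrome c, read 976, 926 and 834 in LSK cells against 2002, 1781 and 2198 in myeloid progenitors and rose 2.18-fold (log2 change 1.13 ± 0.12, limma adjusted p = 0.00157). Ndufs5 of complex I read 130.3, 96.4 and 126 in LSK cells against 267, 267 and 249.6 in myeloid progenitors and rose 2.24-fold. Of 49 ribosome biogenesis genes 29 rose and 1 fell (Nip7, whose other kept probe set had the opposite sign), with a median of 0.42. The rises numbered 16 to 37 under other settings, with 19 without array 11, 18 without array 12 and 10 with all 12 arrays. Bysl, a factor of small subunit assembly, read 22.01, 31.1 and 38.2 in LSK cells against 85.8, 111 and 104 in myeloid progenitors and rose 3.36-fold. Nhp2 of the pseudouridylation particles read 143, 149 and 144 in LSK cells against 281, 324 and 305 in myeloid progenitors and rose 2.08-fold. Of 37 cytosolic ribosomal proteins 34 did not pass, with a median of -0.0023. Rpl4 read 5186, 5069.7 and 5078 in LSK cells against 5026, 5186 and 5098 in myeloid progenitors, with overlapping groups. Of 32 glycolysis and pentose phosphate genes 13 rose (40.6%) and 7 fell (21.9%), against 24.9% and 17.9% over all genes. With all 12 arrays 7 of them rose. Ldha, the lactate dehydrogenase chain of glycolytic tissue, rose 1.43-fold from 675 to 966, and Ldhb read 349, 403 and 415 in LSK cells against 76.7, 78.0 and 66.2 in myeloid progenitors and fell 5.28-fold (log2 change -2.40 ± 0.12, limma adjusted p = 0.000179). Pdk4, which closes the entry of pyruvate to the mitochondrion and is a FoxO target, read 126, 129.5 and 140.2 in LSK cells against 1.79, 10.3 and 9.27 in myeloid progenitors (log2 change -4.57 ± 0.70, limma adjusted p = 0.00514). Ldha did not pass with all 12 arrays.

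Most folding genes of the endoplasmic reticulum rose. Of 30 genes of the unfolded protein response tested 20 rose (66.7%), 5 fell (16.7%) and 5 did not pass, against 24.9% higher and 17.9% lower over all genes. Their median was 0.70, and 12 rose with all 12 arrays. Sdf2l1, an ER chaperone cofactor, read 68.5, 97.3 and 83.4 in LSK cells against 355, 349 and 356 in myeloid progenitors and rose 4.30-fold (log2 change 2.10 ± 0.15, limma adjusted p = 0.000437). Hsp90b1, the ER chaperone GRP94, read 506, 407 and 379.8 in LSK cells against 895, 981 and 1026 in myeloid progenitors and rose 2.26-fold. Pdia6, a disulfide isomerase, rose 2.54-fold from 84.5 to 214. The main ER chaperone Hspa5 read 2176, 2808 and 1902 in LSK cells against 2459, 2210.4 and 2277 in myeloid progenitors with overlapping groups. Atf4, the factor of the integrated stress response, read 1332, 1358 and 1326 in LSK cells against 697, 661 and 653 in myeloid progenitors and fell 1.997-fold, and Ddit3 and Trib3 fell 3.21-fold and 2.34-fold. The others that fell were Dnajb9 and Herpud1, which act in folding and in the removal of misfolded proteins. Asns, asparagine synthetase, read 252, 206 and 234 in LSK cells against 746, 747 and 678 in myeloid progenitors and rose 3.14-fold. Ddit3 had a log2 change of -1.68, and of -0.93, -0.74 and -0.92 without array 4, 5 and 6. In the fit of 11 arrays, which holds all 6 of these arrays, it was -0.85. Each fit chose the probe set anew, so the shift rests on that choice and is not tied to any 1 array. Trib3 had 2 myeloid progenitor arrays above the limit and did not pass with all 12 arrays.

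The FoxO genes were read in both deficient groups. Foxo3 read 3091, 2744 and 2876 in LSK cells against 2338, 2484 and 2640.0 in myeloid progenitors and did not pass (log2 change -0.22 ± 0.10, limma adjusted p = 0.113). Foxo4 read 73.4, 102 and 109 in LSK cells against 64.5, 64.7 and 66.9 in myeloid progenitors and did not pass (log2 change -0.52 ± 0.17, limma adjusted p = 0.0553). Foxo1 read 29.2, 42.4 and 20.2 in LSK cells against 10.5, 16.7 and 13.3 in myeloid progenitors and fell 2.21-fold (log2 change -1.14 ± 0.32, limma adjusted p = 0.0353), with 1 of its other 2 kept probe sets of opposite sign. It did not pass without array 4, 5, 10 or 12, without the filter, or with 11 or 12 arrays fitted together. No value here separates deleted from intact alleles, since the deleted parts are not given in the sources used here. Of 42 known FoxO targets tested, 27 fell, 3 rose and 12 did not pass, with a median of -1.13. Cdkn1a, Cdkn1b, Ccng2, Sesn3, Klf4 and Pdk4, described above, are among those that fell. Bcl2l11, the pro-apoptotic BIM, read 1178, 1112 and 1136 in LSK cells against 372, 343 and 339.6 in myeloid progenitors and fell 3.25-fold (log2 change -1.70 ± 0.08, limma adjusted p = 0.000185), with 4 other kept probe sets of the same sign. Ddit4, an inhibitor of mTOR, read 2832, 3045 and 2959 in LSK cells against 428, 397 and 415 in myeloid progenitors and fell 7.13-fold (log2 change -2.83 ± 0.08, limma adjusted p = 5.18e-05). Trib1, a pseudokinase, read 318, 256 and 263 in LSK cells against 1.00, 10.997 and 3.24 in myeloid progenitors (log2 change -6.40 ± 0.86, limma adjusted p = 0.00331). S1pr1, a sphingosine phosphate receptor, fell at least 1.88-fold, with no myeloid progenitor array above the limit. Those that rose were Prdx3, Atg12 (1.48-fold), an autophagy gene, and Cited2 (1.58-fold), a coactivator-binding protein. Insr, the insulin receptor, read 134, 97.9 and 109.5 in LSK cells against 131, 129 and 96.8 in myeloid progenitors with overlapping groups. The FoxO binding letters GTAAACA were found in 2 of the 24 promoters matched among the fallen targets (8.33%), against 2.68% of tested genes. Among the heme and iron genes that rose, 1 of 12 promoters (8.33%) held them too. Counts this small do not settle whether the shares differ, and a match is a run of letters, not a shown binding site. Of 30 insulin and PI3K signalling genes 24 did not pass, 4 fell (13.3%) and 2 rose (6.67%), both under the shares over all genes, 17.9% and 24.9%. Sgk1, a kinase downstream of PI3K, read 1524, 1418 and 1525 in LSK cells against 409, 410.0 and 369 in myeloid progenitors and fell 3.76-fold. Atg12 did not pass with all 12 arrays, nor Cited2 with the mean of all kept probe sets.

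Of the lists, chosen with earlier results of these data known, the lowest median change was that of the immediate-early genes. These genes are switched on within minutes of a stimulus, without new protein synthesis, and the list also holds genes known to be induced when tissue is dissociated. All 50 were tested and all 50 exceeded the background limit on all 3 LSK arrays. In myeloid progenitors 47 fell, 1 rose and 2 did not pass, with a median of -4.01. Of the 50, 38 were lower by over 4-fold against 5.04% of all genes, and 11 had no myeloid progenitor array above the limit. Falls numbered 38 to 48 under other settings. All 50 had groups without overlap, against 58% of all genes.

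Among the AP-1 factors, Fos read 4287, 4319 and 4421 in LSK cells against 108, 126 and 167 in myeloid progenitors and fell 32.98-fold (log2 change -5.04 ± 0.17, limma adjusted p = 8.21e-05). Fosb read 1762, 1928 and 1977 in LSK cells against 1.12, 7.38 and 2.07 in myeloid progenitors and fell at least 194-fold (log2 change -9.52 ± 0.69, limma adjusted p = 0.000506). Jun read 2518, 2640.0 and 2808 in LSK cells against 75.01, 65.1 and 109 in myeloid progenitors and fell 32.7-fold (log2 change -5.03 ± 0.21, limma adjusted p = 0.000123). All 3 myeloid progenitor arrays of Fosb were below the limit, and those of Fos and Jun were above it. Fosl2 fell 5.57-fold from 2561 to 459, and Junb fell from 52.7, 56.97 and 46.4 to 9.37, 6.47 and 10.7, with 2 of these arrays above the limit. The nuclear receptors of the NR4A family fell too. Nr4a3 read 1924, 2112 and 1803 in LSK cells against 6.45, 1.71 and 0.900 in myeloid progenitors, a fall of at least 199-fold (log2 change -9.82 ± 0.72, limma adjusted p = 0.000522). Nr4a1 read 929.8, 912 and 897 in LSK cells against 3.07, 1.27 and 0.900 in myeloid progenitors, a fall of at least 93.7-fold (log2 change -9.23 ± 0.46, limma adjusted p = 0.000185). No myeloid progenitor array of either exceeded the limit. The zinc finger factor Egr1 read 4429, 4511 and 4574 in LSK cells against 247, 257 and 245 in myeloid progenitors and fell 18.1-fold. Egr3 read 696, 582 and 814 in LSK cells against 1.12, 6.47 and 4.43 in myeloid progenitors and fell at least 70.9-fold. Atf3, a stress-induced bZIP factor, read 588, 616 and 605 in LSK cells against 3.75, 1.71 and 8.39 in myeloid progenitors and fell at least 61.9-fold.

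Feedback genes and secreted products of the same response fell as well. Dusp1, a phosphatase of MAP kinases, read 3641, 3347 and 3417 in LSK cells against 346, 227 and 249 in myeloid progenitors and fell 12.9-fold. Zfp36, which destabilises cytokine mRNA, read 1508, 1471 and 1637 in LSK cells against 39.1, 35.96 and 32.04 in myeloid progenitors and fell 43.2-fold. Socs3, an inhibitor of cytokine receptors, read 812, 815 and 746 in LSK cells against 11.1, 9.37 and 9.49 in myeloid progenitors (log2 change -6.31 ± 0.11, limma adjusted p = 2.20e-05). Ptgs2, the inducible cyclooxygenase, read 1458, 1359 and 1451 in LSK cells against 6.82, 4.63 and 1.75 in myeloid progenitors and fell at least 146-fold. The chemokine Ccl3 read 565, 618 and 559 in LSK cells against 5.58, 5.38 and 2.48 in myeloid progenitors and fell at least 59.5-fold, and the chemokine Cxcl2 read 1314, 1209.5 and 1409.8 in LSK cells against 12.7, 4.86 and 4.13 in myeloid progenitors, with 1 myeloid progenitor array above the limit. Plk2, a polo-like kinase, read 149, 223 and 226 in LSK cells against 2.89, 3.76 and 5.80 in myeloid progenitors and fell at least 20.1-fold. Mcl1, an anti-apoptotic gene with a short-lived mRNA, fell 2.15-fold from 3104 to 1444, a smaller change than those above. The 1 gene that rose was Myc, at 126, 144 and 113 in LSK cells against 319, 343 and 417 in myeloid progenitors, 2.82-fold higher (limma adjusted p = 0.00134). The 2 that did not pass were heat shock genes. Hspa1a read 27.1, 29.4 and 19.9 in LSK cells against 18.98, 2.48 and 7.63 in myeloid progenitors, and Hsp90aa1 read 2254, 2228 and 2287 in LSK cells against 2549.7, 2418 and 2479 in myeloid progenitors. These 2 genes and Dusp1, Zfp36, Socs3 and Egr1 were picked after their values were seen.

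Promoters of 4 of the fallen genes are printed because the factor CREB, which drives many immediate-early genes, binds TGACG, the first letters of the cAMP response element. They are RefSeq stretches of GRCm38.p6, the 250 bases before the gene start, 5′ to 3′ on the strand of the gene, with TGACG or its reverse complement CGTCA in capitals. Fos lies at chr12:85473640-85473889 on the plus strand, Fosb at chr7:19310046-19310295 on the minus strand, Nr4a1 at chr15:101266596-101266845 on the plus strand and Nr4a3 at chr4:48045055-48045304 on the plus strand.
Fos: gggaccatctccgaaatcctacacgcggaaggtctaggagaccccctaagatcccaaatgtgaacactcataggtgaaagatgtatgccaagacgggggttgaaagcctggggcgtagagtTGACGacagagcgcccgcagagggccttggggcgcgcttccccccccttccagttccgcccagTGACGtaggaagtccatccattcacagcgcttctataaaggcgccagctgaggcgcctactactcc
Fosb: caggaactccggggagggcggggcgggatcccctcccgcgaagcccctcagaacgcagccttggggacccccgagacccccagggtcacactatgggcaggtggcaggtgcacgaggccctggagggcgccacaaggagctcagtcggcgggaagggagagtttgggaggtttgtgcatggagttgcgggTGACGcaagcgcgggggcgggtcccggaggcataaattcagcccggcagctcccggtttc
Nr4a1: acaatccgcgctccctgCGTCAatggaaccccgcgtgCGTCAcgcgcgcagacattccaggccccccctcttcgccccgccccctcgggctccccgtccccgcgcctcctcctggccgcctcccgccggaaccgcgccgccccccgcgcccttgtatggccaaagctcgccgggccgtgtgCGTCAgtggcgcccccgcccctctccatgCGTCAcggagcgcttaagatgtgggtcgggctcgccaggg
Nr4a3: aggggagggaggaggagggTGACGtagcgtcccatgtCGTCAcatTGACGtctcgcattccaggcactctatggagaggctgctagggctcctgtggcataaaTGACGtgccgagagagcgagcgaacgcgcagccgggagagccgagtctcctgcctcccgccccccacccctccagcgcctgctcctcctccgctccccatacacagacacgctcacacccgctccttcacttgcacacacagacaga
The motif occurs 2 times before Fos, 1 time before Fosb and 4 times before each of the NR4A genes. Of the 47 fallen genes 38 had a promoter in the table, and 19 of these (50%) held the motif on either strand, against 2970 of 9729 tested genes (30.5%). The whole element TGACGTCA, which contains the shorter motif, was in 5 of 38 (13.2%) against 2.98%, and the CArG box bound by serum response factor was in 3 of 38 (7.89%) against 1.43%. TGACG was also in 5 of 12 promoters of the risen heme and iron genes (41.7%) and 8 of 24 of the fallen FoxO targets (33.3%). Lower shares were those of the risen erythroid genes (6 of 24, 25%), fallen stem cell genes (6 of 27, 22.2%) and risen granulocyte-monocyte genes (0 of 17). The motifs and genes shown were chosen after the values were seen, and a match is a run of letters, not a shown binding site.

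Other stress and signalling lists had medians nearer to 0, and over all genes 24.9% rose and 17.9% fell. Of 36 interferon response genes 16 fell (44.4%), 3 rose (8.33%) and 17 did not pass, with a median of -0.65. Rsad2, the antiviral protein viperin, read 223, 243 and 216 in LSK cells against 6.25, 16.6 and 22.9 in myeloid progenitors and fell 17.03-fold, with 2 myeloid progenitor arrays above the limit (log2 change -4.09 ± 0.49, limma adjusted p = 0.00229). Iigp1, an interferon-induced GTPase, read 105, 78.0 and 84.3 in LSK cells against 13.8, 11.7 and 7.18 in myeloid progenitors and fell 8.39-fold, again with 2 above it, and the interferon-induced chemokine Cxcl10 fell at least 6.41-fold. Ifit2 read 74.6, 82.4 and 65.8 in LSK cells against 81.3, 84.3 and 74.9 in myeloid progenitors with overlapping groups, and Irgm1, another GTPase, rose 1.57-fold from 41.6 to 65.2. Of 26 p53 targets 11 fell (42.3%) and 7 rose (26.9%). The rises numbered 4 without a filter or without any one of arrays 5, 6, 10 and 11, and 3 with all 12 arrays. Mdm2, the ubiquitin ligase of p53, fell 1.82-fold from 1159 to 638, and Plk2, Btg2, Cdkn1a and Ddit4 are shared with lists above. Tigar, which lowers glycolytic flux, read 77.2, 119.6 and 60.4 in LSK cells against 338, 407 and 396 in myeloid progenitors and rose 4.60-fold (log2 change 2.20 ± 0.27, limma adjusted p = 0.00239). Zmat3 read 67.1, 65.2 and 61.2 in LSK cells against 189, 173 and 214 in myeloid progenitors and rose 2.97-fold. Of 28 apoptosis regulators 8 rose, 8 fell (28.6% each) and 12 did not pass. Without the filter or array 5, 5 rose, and with all 12 arrays none rose and 5 fell. Apaf1, the scaffold of the apoptosome, read 447, 379 and 418 in LSK cells against 730.4, 743 and 838 in myeloid progenitors and rose 1.86-fold. Bid rose 2.08-fold from 95.7 to 199. Pmaip1, the p53 target NOXA, read 206, 204 and 261 in LSK cells against 74.4, 84.5 and 80.8 in myeloid progenitors and fell 2.78-fold. Birc3, an inhibitor of apoptosis, fell 3.25-fold. Bcl2 read 257, 317 and 298 in LSK cells against 301, 242 and 227 in myeloid progenitors with overlapping groups. Irgm1, Mdm2, Apaf1 and Bid did not pass with all 12 arrays.

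Of 27 hypoxia factors and targets 8 fell (29.6%), 4 rose (14.8%) and 15 did not pass. Vegfa, the endothelial growth factor, read 641, 487 and 509.9 in LSK cells against 53.6, 53.1 and 49.4 in myeloid progenitors and fell 10.4-fold (log2 change -3.38 ± 0.13, limma adjusted p = 0.00011). Bhlhe40, a repressor of the circadian clock, read 1138, 787 and 868 in LSK cells against 14.6, 12.1 and 20.5 in myeloid progenitors and fell 59.99-fold. Hif1a itself read 1112, 1070.1 and 1098 in LSK cells against 898, 883 and 991 in myeloid progenitors without passing (log2 change -0.25 ± 0.09, limma adjusted p = 0.0701). Of 36 autophagy and lysosome genes 10 fell (27.8%) and 8 rose (22.2%), near the 17.9% and 24.9% over all genes, and with all 12 arrays 4 rose. Ulk1, the kinase that starts autophagy, read 121, 133 and 106 in LSK cells against 49.8, 44.3 and 56.4 in myeloid progenitors and fell 2.40-fold. Sqstm1, the cargo receptor p62, read 382, 373 and 324 in LSK cells against 97.9, 79.0 and 94.2 in myeloid progenitors and fell 3.99-fold. Map1lc3a fell 5.20-fold from 148 to 28.4. Against them Atg5, of the conjugation system, read 74.99, 69.2 and 68.2 in LSK cells against 147, 146 and 133 in myeloid progenitors and rose 2.01-fold. Of 20 cholesterol synthesis genes 7 rose (35%) and 3 fell (15%). Fdps, farnesyl diphosphate synthase, read 30.6, 19.2 and 31.7 in LSK cells against 86.3, 85.0 and 98.1 in myeloid progenitors and rose 3.38-fold. Srebf2, the factor that activates the pathway, read 496, 475 and 474 in LSK cells against 192, 189 and 172 in myeloid progenitors and fell 2.61-fold. With all 12 arrays 3 rose, and 4 rose without the filter or without array 11. Sqstm1 had a log2 change of -1.995, and of -4.15 and -4.26 without array 10 and 12. In the fit of 11 arrays, which holds arrays 10 and 12, it was -4.28. With the mean of all kept probe sets it was -3.14. Each fit chose the probe set anew, so the larger falls may come from another probe set and are not tied to array 10 or 12. The 3.99-fold fall above thus depends on the probe set chosen. Ulk1 did not pass with the mean of all kept probe sets, nor Fdps and Srebf2 with all 12 arrays.

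Among 44 hematopoietic transcription factors 20 fell (45.5%), 10 rose (22.7%) and 14 did not pass, against 17.9% lower and 24.9% higher over all genes. Irf4, a lymphoid factor, read 241, 273 and 264 in LSK cells against 1.93, 1.03 and 9.07 in myeloid progenitors and fell at least 26.6-fold (log2 change -6.63 ± 0.80, limma adjusted p = 0.00238). Gata3, of stem and T cells, read 27.7, 41.6 and 39.6 in LSK cells against 13.7, 1.15 and 2.92 in myeloid progenitors (log2 change -3.32 ± 0.91, limma adjusted p = 0.0333). This call was lost without array 4, 5, 6, 11 or 12 and without the filter. Of 39 cytokine and growth factor receptors 15 fell (38.5%) and 9 rose (23.1%), and with all 12 arrays 8 fell and 3 rose. Fzd4, a Wnt receptor, read 95.8, 91.0 and 106 in LSK cells against 13.3, 4.63 and 5.58 in myeloid progenitors (log2 change -3.80 ± 0.41, limma adjusted p = 0.00168). Ifngr1, the interferon gamma receptor, read 70.4, 71.9 and 75.2 in LSK cells against 159, 164 and 181 in myeloid progenitors and rose 2.32-fold. Igf1r, the IGF1 receptor, read 1100.0, 1027 and 1073 in LSK cells against 859, 982 and 888 in myeloid progenitors without passing (log2 change -0.23 ± 0.09, limma adjusted p = 0.0947). Of 37 chromatin regulators 13 fell (35.1%) and 8 rose (21.6%), and with all 12 arrays 8 fell. The number of rises depended on the setting, with 2 without the filter, 1 with all 12 arrays and 2 to 5 when any one array was left out. Kdm6b, a demethylase of H3K27, read 5002, 4995 and 5212 in LSK cells against 1670.5, 1643 and 1506 in myeloid progenitors and fell 3.16-fold (log2 change -1.66 ± 0.08, limma adjusted p = 0.0002). Dnmt3b, a DNA methyltransferase, fell 1.49-fold from 698 to 469, and Dnmt3a read 1072, 1066 and 1002 in LSK cells against 982, 1148 and 1136 in myeloid progenitors with overlapping groups. Of 29 adhesion genes 10 fell (34.5%) and 5 rose (17.2%). The falls numbered 5 to 12 under other settings, with 5 or 6 without any one LSK array. With all 12 arrays 5 fell and 3 rose. Emcn, a sialomucin of stem and endothelial cells, read 157, 155 and 163 in LSK cells against 14.2, 17.2 and 8.51 in myeloid progenitors and fell 12.4-fold, with 2 myeloid progenitor arrays above the limit. Vcam1 rose 2.69-fold from 39.3 to 106. Of 26 ABC transporters and aldehyde dehydrogenases 11 fell (42.3%) and 8 rose (30.8%). There were 5 to 12 falls under other settings, and 6 falls and 4 rises with all 12 arrays. Abcg1, a sterol exporter, read 677, 640.3 and 599 in LSK cells against 230.3, 193 and 254 in myeloid progenitors and fell 2.84-fold. Abcg3, another transporter of the family, read 142, 121 and 125 in LSK cells against 8.03, 2.58 and 7.63 in myeloid progenitors and fell at least 13.2-fold. Aldh1a1 read 72.1, 124 and 96.8 in LSK cells against 385, 381 and 431 in myeloid progenitors and rose 4.19-fold.

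Whether the step differed with genotype was tested in 1 fit of 11 arrays, normalized together, as the deficient step minus the wild-type step. Wild-type LSK array 2 was left out for its Gapdh ratio, so wild-type LSK cells rest on arrays 1 and 3. Only the deficient groups carry Mx-Cre, so FoxO loss and the transgene cannot be told apart in this difference. In that fit 5160 genes passed in the deficient step (22.3% higher, 16.1% lower) and 4696 in the wild-type step (18.4% higher, 16.6% lower). The 3314 genes that passed in both with the same sign are 64.2% of the deficient and 70.6% of the wild-type calls, and 66 passed in both with opposite signs. The step itself differed between genotypes for 472 of 13445 genes, or 3.51%, 238 (1.77%) with a higher deficient step and 234 (1.74%) with a lower one. With all 12 arrays 118 of 13732 genes differed, or 0.859%, and 116 of these were among the 472.

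**Figure D4:**
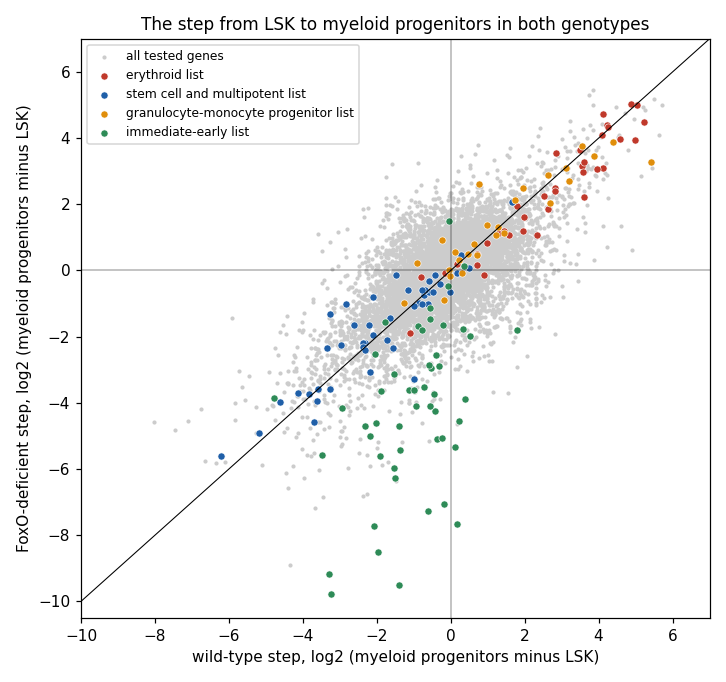
Log2 step from LSK cells to myeloid progenitors in wild-type cells (x axis) and FoxO-deficient cells (y axis) for each gene of the fit of 11 arrays, with 4 lists coloured and the line of equal steps drawn. Erythroid, granulocyte-monocyte and stem cell genes scatter about the line, and immediate-early genes lie below it, their median step being -3.98 in deficient and -0.74 in wild-type cells.

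The lineage lists differed in 1 to 5 of their genes each, against 3.51% of all genes. Of the erythroid list 1 gene differed, and the medians were 2.25 in deficient and 2.81 in wild-type cells. Klf1 rose by 4.50 and 5.23 on the log2 scale (difference -0.73 ± 0.25, limma adjusted p = 0.172), and Gata1 by 3.14 and 3.55 (difference -0.40 ± 0.19, limma adjusted p = 0.325). Of the granulocyte-monocyte list 2 genes had a higher deficient step, and the medians were 1.14 and 0.97. Elane rose by 3.46 and 3.87 (limma adjusted p = 0.45 for the difference). Of 50 S phase genes and 50 G2 and M phase genes none differed in the limma fit. At an unadjusted p under 0.05, 1 S phase gene had a higher and 8 a lower deficient step, and 7 G2 and M phase genes a lower one. Over all genes, 2406 of 13445 were under that cut, in either direction. In the stem cell list 5 genes had a higher deficient step, 1 with all 12 arrays, and none a lower one (10 and 1 at an unadjusted p under 0.05), with medians of -1.43 and -1.73. Mecom changed by -3.71 and -4.13, a difference that did not pass (limma adjusted p = 0.243). Of the other lineage lists, 4 of 19 monocyte and macrophage genes (21.1%), 3 of 15 eosinophil, basophil and mast cell genes (20%), 4 of 20 mature B and plasma cell genes (20%) and 4 of 27 megakaryocyte genes (14.8%) differed, and 1 each of 19 late neutrophil, 33 lymphoid, 17 T and NK cell and 17 stromal genes. The stem cell list stood at 11.1%, the granulocyte-monocyte list at 7.41% and the erythroid list at 2.7%.

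Some regulators did differ, and those named here were picked after their values were seen. Gfi1 read 162 and 144 on the wild-type LSK arrays and 250.1, 269.7 and 254 in wild-type myeloid progenitors, and 75.5, 67.7 and 80.6 and then 482, 448 and 449.9 in the deficient groups. Its deficient step was larger by 1.87 ± 0.15 (limma adjusted p = 0.000319, and 0.00845 with all 12 arrays), with the deficient LSK arrays below and the deficient myeloid progenitor arrays above their wild-type counterparts. Mycn read 658 and 661, then 69.9, 63.3 and 73.7 in wild-type cells, and 388, 307 and 369, then 128, 140.2 and 156 in deficient cells, a smaller fall in deficient cells (difference 1.94 ± 0.18, limma adjusted p = 0.00099, and 0.0862 with all 12 arrays). Erg and Meis1, factors of stem cells, gave differences of 1.83 and 1.31 in the same direction (limma adjusted p = 0.0175 and 0.0318). Their adjusted p in limma was 0.0496 and 0.0553 with all 12 arrays. Ccr2 read 63.6 and 59.5, then 318, 333 and 329.6 in wild-type cells, and 8.72, 11.5 and 13.4, then 233, 209 and 209.8 in deficient cells (difference 1.89 ± 0.22, limma adjusted p = 0.00354). Its levels in the deficient LSK arrays lay near background. The basophil protease Mcpt8 went the other way, with wild-type LSK arrays at 27.3 and 23.7, deficient LSK arrays at 162, 146 and 156, and a difference of -1.80 ± 0.16 (limma adjusted p = 0.000654, and 0.054 with all 12 arrays).

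The FoxO targets differed in 7 of 44 members (15.9%), against 3.51% of all genes. Of these, 6 had a lower and 1 a higher deficient step, and with all 12 arrays 2 differed, both lower. Other lists stood higher, with cell cycle inhibitors at 18.2%, interferon response genes at 18.9% and p53 targets at 23.1%. The medians of the FoxO targets were -1.10 in deficient and -0.75 in wild-type cells. Bcl2l11 read 351 and 346, then 298, 277 and 299 in wild-type cells, and 1134, 1067 and 1091, then 354, 326 and 324 in deficient cells. The difference of -1.46 ± 0.12 (limma adjusted p = 0.000412) rested on the deficient LSK arrays, the only ones above 1000, and did not pass with all 12 arrays (limma adjusted p = 0.162). Cdkn1a fell in both genotypes, with log2 changes of -4.15 in deficient and -2.34 in wild-type cells (difference -1.81 ± 0.15, limma adjusted p = 0.000546, and 0.23 with all 12 arrays). Pmaip1 fell in deficient cells (log2 change -1.47) and rose in wild-type cells (1.89), with arrays at 123 and 76.8, then 357, 368 and 358 in wild-type and 195, 193 and 248, then 70.9, 80.6 and 77.0 in deficient cells (limma adjusted p = 0.000343).

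The immediate-early list differed most: 38 of its 50 genes had a lower deficient step (29 with all 12 arrays) and 1, Myc, a higher one. The array medians of the list were 872.6 to 968.3 in wild-type LSK cells, 866.4 to 916.8 in deficient LSK cells, 369.2 to 423.5 in wild-type myeloid progenitors and 30.04 to 35.83 in deficient myeloid progenitors. The ranges of the LSK groups overlap, and the wild-type myeloid progenitors lie between them and the deficient ones. For 43 of the 50 genes all 3 deficient myeloid progenitor arrays lay under all 8 other arrays, against 621 of 13445 genes (4.62%). Fos read 3883 and 4020.5, then 3328, 2734 and 3083 in wild-type cells, and 4257, 4291 and 4389, then 104, 121 and 159 in deficient cells (difference -4.72 ± 0.23, limma adjusted p = 3.84e-05). Jun read 2289.6 and 2162, then 2012, 1705 and 1925 in wild-type cells, and 2468, 2598 and 2763, then 71.4, 62.004 and 104 in deficient cells (difference -4.83 ± 0.27, limma adjusted p = 5.56e-05). Only the deficient myeloid progenitor arrays of both genes were below 1000. Nr4a1 fell in both genotypes, from 822 and 701 to 69.04, 82.6 and 81.8 in wild-type cells and from 889, 872 and 856 to 3.03, 1.26 and 0.899 in deficient cells (fitted difference -5.88 ± 0.56, limma adjusted p = 0.00106, and -3.23 with readings under the limit set to it). Myc read 120.2, 137 and 108, then 303, 327 and 398 in deficient cells and 162 and 187, then 164, 189 and 157 in wild-type cells (difference 1.53 ± 0.21, limma adjusted p = 0.00849). The Gapdh 3′ over 5′ ratios were 1.77 to 2.03 in deficient and 2.07 to 2.30 in wild-type myeloid progenitors, and their part in this difference was not tested.

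**Figure D5:**
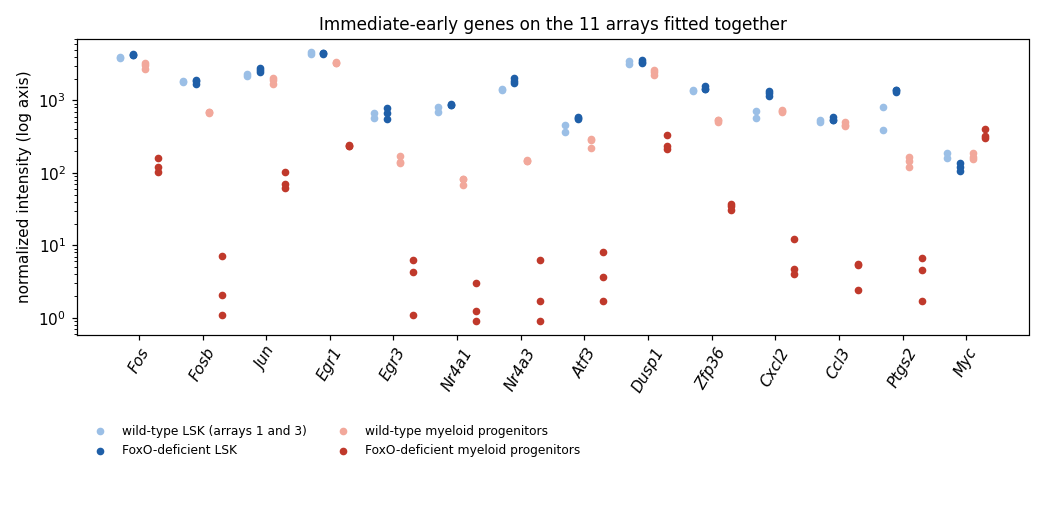
Normalized intensity (log axis) of 14 immediate-early genes on the 11 arrays fitted together, each point an array, with wild-type and FoxO-deficient cells in light and dark colours, LSK cells in blue and myeloid progenitors in red. In 13 of the 14 genes the 3 dark red points lie lowest, and in Myc they lie highest.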

How the data were processed

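The series holds 12 Affymetrix Mouse Genome 430 2.0 arrays of amplified RNA. The deposited values are intensities per probe set on a linear scale, 1 column per array in the authors' value table. Which software summarised and scaled the probes is not stated in those sources used here. The 45101 probe sets hold 64 controls. Of the others 34945 are paired with 1 gene symbol, 932 with several and 9160 with none, and 34741 symbols were updated through the RefSeq table of GRCm38.p6. Genes are named from probe sets with 1 symbol.

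An offset of 0.6, the 10th percentile of the 6 arrays, was added. Values were quantile normalized over the arrays fitted and taken to log2. Probe sets above the 40th percentile of their array on at least 3 arrays were kept (22367), and the kept probe set of highest mean stood for its gene. Both choices were made anew in each fit. Groups were compared with limma 3.58.1 (lmFit, eBayes) in R 4.3.3, two-sided, with Benjamini-Hochberg adjustment over all genes tested. The test of the deficient step was also checked on simulated data, in which 50 genes were changed at each size. At log2 sizes of 0.5, 1, 2 and 4, 8%, 48%, 74% and 86% of them were called. Far fewer genes changed there than passed in the data, so these shares do not carry over directly. The background limit of an array, 5.38 to 10.6, comes from its negative control probe sets. A fold is given as "at least" against a group with no array above it, and none is given with 1, or with 2 where the group mean lies under the mean limit. The number of arrays limits the precision.

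Genes were named by a rule: the 15 largest rises and falls with groups apart and the brighter group above the limit, the first 6 members and up to 4 called members in each direction of each list, the FoxO family and sort markers, and the 10 largest genotype differences in each direction. Others are said to be picked after their values were seen. The members and gene lists were chosen with earlier results of these data known. Alternatives were another offset, filter, scaling, probe set rule, variance trend, array weights, the arrays fitted and leaving out each array. Promoters came from RefSeq's table for GRCm38.p6, matched by symbol.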

Additional observations from a re-analysis of the deposited data

Results flagged for a closer look

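Between genotypes, 472 genes differed in their step from LSK cells to myeloid progenitors, by the test of the difference itself in the limma fit of 11 arrays. Differences here are the deficient log2 step minus the wild-type log2 step, and the 10 largest in each direction are given with their fitted values. Where readings lie under the background limit the fitted size is set in part by them and gives no order among the genes.

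The lower differences were mostly of immediate-early genes and chemokines: Fosb -8.09, Cxcl2 -7.84, Ccl3 -6.89, Atf3 -6.66, Ptgs2 -6.55, Nr4a3 -6.55, Nr4a1 -5.88, Egr3 -5.65, Ccl4 -5.45 and Cxcl10 -5.27. In 9 of these 10 genes no deficient myeloid progenitor array was above its background limit, and in Cxcl2 1 was. With such readings set to the limit the differences were -7.06 for Cxcl2, -6.18 for Fosb and -5.68 for Ccl3, and -3.23 for Nr4a1 to -5.30 for Atf3 in the others. Fosb had means of 1806 and 683 in wild-type LSK cells and myeloid progenitors and of 1827 and 2.54 in the deficient ones. Cxcl2 had means of 642 and 721 in wild-type and 1261 and 6.201 in deficient cells. Cxcl10, an interferon-induced chemokine, rose in wild-type cells, from 29.2 and 20.3 to 71.3, 88.5 and 58.9, and fell in deficient cells, from 58.9, 67.2 and 53.2 to 5.38, 3.20 and 5.48. Each of the 10 passed with all 12 arrays as well.

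The higher differences were of genes of several kinds: Lrp2bp 4.68, Trim30d 4.46, Cox8b 4.23, 4933439C10Rik 4.11, Rab23 4.07, Gm27230 3.93, Rsl1 3.73, Zfp563 3.50, Igkv8-30 3.45 and Tpd52l1 3.13. In 8 of these 10 genes no wild-type myeloid progenitor array was above its limit, the others being Rsl1 and Zfp563. Lrp2bp was above the limit on no deficient array, Cox8b on 1 and Gm27230 on 2, and their fitted differences have no bound here. With readings under the limit set to it, Rsl1 differed by 3.59, Zfp563 by 3.38, 4933439C10Rik by 2.46, Trim30d by 2.10, Rab23 by 1.65, Igkv8-30 by 1.62 and Tpd52l1 by 0.39. Trim30d, of an interferon-induced TRIM cluster, had means of 119.9 and 2.002 in wild-type LSK cells and myeloid progenitors and of 241 and 88.8 in the deficient ones. Igkv8-30, an immunoglobulin kappa segment, read 790.0 and 715, then 2.70, 3.61 and 2.50 in wild-type cells and 1172, 1082 and 1172, then 36.3, 64.97 and 46.9 in deficient cells. Rab23, a small GTPase, had means of 21.7 and 1.93 in wild-type and 13.04 and 19.5 in deficient cells. With all 12 arrays Lrp2bp (limma adjusted p = 0.414) and Gm27230 (limma adjusted p = 0.0652) no longer passed.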

How the results depend on the processing

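The count of genes that changed between FoxO-deficient LSK cells and myeloid progenitors, 5118, ran from 3857 (no filter on dim probe sets) to 5925 (intensity trend) under the other choices on the same 6 arrays, and was 5160 in the fit of 11 arrays. With all 12 arrays it was 2695 (1406 higher and 1289 lower). Leaving out 1 array gave 4116 to 4241 genes, 2261 to 2590 higher and 1567 to 1922 lower. Between genotypes the 472 differing genes (238 higher, 234 lower) depended more on the choices. They were 739 with an offset of 16 (416 higher), 231 without a filter (91 higher, 140 lower), 832 with a filter at the 60th percentile (478 and 354), 267 with the mean of all kept probe sets (94 higher), 1001 with an intensity trend (588 and 413) and 118 with all 12 arrays (40 and 78). Calls with a higher deficient step were 50.4% of the 472, and 39.4%, 35.2% and 33.9% without a filter, with the mean of probe sets and with all 12 arrays. Leaving out 1 array gave 236 to 328 genes, 85 to 152 higher and 151 to 200 lower, the fewest without wild-type LSK array 1. Without array 1 or 3, 1 wild-type LSK array remained and was assumed to vary like the others. Of 306 called changes of genes that the naming rule picked, 209 passed under every setting, 97 missed the threshold under at least 1 and 5 of these reversed. With the mean of all kept probe sets Ccnd3 was at -0.445, Ggct at -0.704, Maoa at 0.2477 and Nip7 at 0.1958, and with all 12 arrays Csf2ra was at 0.5247. Of the 20 named differences between genotypes 9 passed under every setting and none reversed. Counts of under 5 members of a list also moved by over 1.5 times with all 12 arrays in several lists. The cause was not tested. No paired analysis was possible because the labels give the groups no shared replicate numbers. With 3 arrays per group and values near background for many genes, changes may go uncalled, small ones of dim genes among them. A gene that did not pass is not shown to be unchanged.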
